A study of Mus musculus with 143 samples.

Results

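Regulators of G protein signalling were followed through the striatum of the zQ175 mouse, a knock-in model of Huntington's disease. The 10 genes described here were taken by name: the regulators Rgs2, Rgs4, Rgs6, Rgs7, Rgs8, Rgs9, Rgs14, Rgs16 and Rgs20, and the R7 binding protein Rgs7bp. They are 10 of the 41128 genes in the table, and all 10 passed the filter on low counts in each of the 3 treatment strategies. Polyadenylated RNA of the dissected striatum was sequenced from 143 mice, 1 library each. The animals fall into 18 groups, given by 2 genotypes, 3 treatments and 3 strategies. The genotypes are wild type and zQ175, which carries an expanded CAG repeat in the mouse Htt gene. The treatments are none, a non-targeting siRNA (NTC) and an siRNA against full-length Htt (HTT-10150).

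The strategies differ in when the siRNA was given and when tissue was taken. In 2[4]6 the treatment fell at 2 months of age and the tissue was taken at 6 months. In 6[4]10 treatment fell at 6 months and collection at 10 months. In 2+6[8]10 the mice were treated at both 2 and 6 months and collected at 10 months. Untreated mice of the same ages belong to each strategy. Groups held 8 mice, 4 females and 4 males, except wild-type mice given HTT-10150 under 2+6[8]10, of which there were 7 (2 females and 5 males). For repeat length, zygosity, dose and route of delivery, nothing is stated in these sources. P-values measure the spread between the animals as labelled.

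A G protein coupled receptor switches on a heterotrimeric G protein by loading its alpha subunit with GTP, and the signal lasts until that GTP is hydrolysed. Proteins with an RGS domain bind the active alpha subunit and speed hydrolysis, so they shorten signalling through dopamine, opioid, muscarinic and other receptors. In the striatum most neurons are GABAergic medium spiny neurons, whose output depends on dopamine receptors coupled to Golf and Gi/o, and Rgs9 is a textbook regulator of these neurons. The R7 group (Rgs6, Rgs7, Rgs9) is stable only with the beta subunit Gnb5 and is held at membranes by Rgs7bp. Rgs2, Rgs4, Rgs8 and Rgs16 are small proteins of the R4 group, Rgs14 belongs to the R12 group and Rgs20 to the RZ group.

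The libraries held 12.6 M to 29.2 M counts, with a median of 18.9 M. Markers of medium spiny neurons (15 genes, Rgs9 not among them) summed to 14029 to 20171 CPM, counts scaled to library size in wild-type libraries and 5740 to 10877 CPM in zQ175 libraries, with none of the 15 at 0. In 22 libraries the summed choroid plexus markers exceeded 1000 CPM or the summed cortical neuron markers exceeded 500 CPM, and calls that change when they are left out are named with the results. Htt itself, the siRNA target, is counted without separating the alleles. In edgeR's quasi-likelihood test with Benjamini-Hochberg adjustment, its log2 fold change for HTT-10150 against NTC was -0.008, -0.32 and -0.36 in zQ175 and -0.26, -0.34 and -0.49 in wild type for 2[4]6, 6[4]10 and 2+6[8]10, in that order. Htt was called at an adjusted p under 0.05 under 2+6[8]10 only, with 3.46e-04 in zQ175 and 5.01e-06 in wild type.

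Of the 10 genes, 6 lie on chromosome 1 of the mouse genome (GRCm38, GENCODE M21). Rgs4 spans chromosome 1, 169741477 to 169747642, Rgs2 spans chromosome 1, 143999338 to 144004161, and both are read from the minus strand. Rgs8 (chromosome 1, 153653025 to 153700323) and Rgs16 (chromosome 1, 153740349 to 153745468) are neighbours on the plus strand, with 40025 bases and no coding gene between them. Rgs7 covers chromosome 1, 175059087 to 175492500, and Rgs20 covers chromosome 1, 4909576 to 5070285. Rgs9 lies on chromosome 11, 109225355 to 109298129, Rgs6 on chromosome 12, 82588292 to 83162056, Rgs7bp on chromosome 13, 104945904 to 105054930 and Rgs14 on chromosome 13, 55369732 to 55384687. Some exons share bases with a gene on the opposite strand: 127 bases of Rgs20 with Atp6v1h and 125 with the pseudogene Gm17101, 236 of Rgs16 with Gm28513, 77 of Rgs6 with Gm29530 and 70 of Rgs8 with Gm29529. Whether the counting used strand is not given in the sources used here, so reads from these bases cannot be assigned with certainty.

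The 250 bases before the annotated start were available from RefSeq (GRCm38.p6) for 8 of the 10 genes, all but Rgs14 and Rgs20. They are shown for Rgs9, Rgs4 and Rgs7bp, which were lower in zQ175 in every comparison of the genotypes below, and for Rgs2, which moved with the immediate early genes. Capitals mark the motifs searched on both strands: the core of the cyclic AMP response element (TGACG, or CGTCA on the other strand), the Sp1 box (GGGCGG, or CCGCCC) and the TATA box (TATAAA). Each sequence runs 5′ to 3′ on the gene's own strand and ends at the base before the start.
Rgs9 (chr11:109298182-109298431, minus strand): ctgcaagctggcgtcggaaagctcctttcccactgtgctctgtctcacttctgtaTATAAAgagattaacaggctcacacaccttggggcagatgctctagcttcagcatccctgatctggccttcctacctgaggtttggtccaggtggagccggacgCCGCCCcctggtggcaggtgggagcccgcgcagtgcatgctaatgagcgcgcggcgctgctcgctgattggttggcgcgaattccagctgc
Rgs4 (chr1:169747643-169747892, minus strand): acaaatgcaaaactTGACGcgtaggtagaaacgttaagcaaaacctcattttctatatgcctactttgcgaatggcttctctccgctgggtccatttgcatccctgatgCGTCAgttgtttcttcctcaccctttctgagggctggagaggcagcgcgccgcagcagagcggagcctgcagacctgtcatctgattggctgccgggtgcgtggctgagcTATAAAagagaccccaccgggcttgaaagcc
Rgs7bp (chr13:105054931-105055180, minus strand): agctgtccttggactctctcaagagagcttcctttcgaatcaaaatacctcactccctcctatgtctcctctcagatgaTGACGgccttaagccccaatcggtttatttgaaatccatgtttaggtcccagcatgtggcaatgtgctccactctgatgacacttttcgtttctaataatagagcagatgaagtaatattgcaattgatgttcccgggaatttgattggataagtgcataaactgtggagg
Rgs2 (chr1:144004150-144004399, minus strand): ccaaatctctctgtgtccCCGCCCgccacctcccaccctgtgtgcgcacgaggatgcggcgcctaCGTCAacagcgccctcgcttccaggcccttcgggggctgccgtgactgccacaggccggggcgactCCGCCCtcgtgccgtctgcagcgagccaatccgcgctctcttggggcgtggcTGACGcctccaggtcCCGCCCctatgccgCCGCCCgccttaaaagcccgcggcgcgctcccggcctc

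The Rgs4 window held 2 cyclic AMP response element cores, which begin at positions -236 and -141 from the start, and a TATA box from -31 to -26. The Rgs2 window held 2 cores, at -185 and -67, and 4 Sp1 boxes. Among 32851 RefSeq promoter windows of this length, 17.77% held at least 1 such core and 3.9% held 2 or more. Rgs7bp had 1 core, at -171. Rgs9 had no core but 1 Sp1 box at -91, a motif found in 32.74% of windows, and a TATA box at -195, a motif found in 12.37%. The other windows held less: 1 core in the first of 3 windows of Rgs8, 2 Sp1 boxes that share a base in Rgs16, 1 E-box (CACGTG, in 6.021% of windows) in Rgs7, and none of these motifs in Rgs6. The full palindrome TGACGTCA (1.546% of windows) and the Egr box GCGTGGGCG (0.5358%) were in none of the 8. These matches describe letters in the windows and say nothing of which factor binds there. The motifs partly overlap in definition, since the core is contained in the palindrome.

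Levels between genes were compared per length, as TPM (transcript counts scaled by length and library), in the 24 untreated wild-type mice. Rgs4 stood at 597 ± 68.9 TPM (SD, n = 24) and Rgs9 at 552 ± 51.8 TPM, and Rgs4 was the higher in 17 of 24 libraries, so this pair was not separated. Rgs7bp followed with 198 ± 17.7 TPM. Rgs2 (129 ± 19.6 TPM) and Rgs8 (113.2 ± 9.12 TPM) overlapped, with Rgs2 higher in 20 of 24 libraries. Rgs14 (71.5 ± 7.67 TPM) and Rgs20 (70.4 ± 7.72 TPM) were not separated either, with Rgs14 higher in 13. Rgs7 had 42.2 ± 3.39 TPM, Rgs6 13.6 ± 1.52 TPM and Rgs16 3.98 ± 0.916 TPM, which made Rgs16 the least abundant of the 10. In the 24 untreated zQ175 mice Rgs4 stood at 346 ± 34.5 TPM, Rgs9 at 333 ± 26.4 TPM, Rgs7bp at 136 ± 13.5 TPM and Rgs14 at 33.7 ± 3.42 TPM. Rgs2 and Rgs8 stood at 112 ± 15.4 and 110.2 ± 10.3 TPM there, so that in zQ175 the levels of Rgs7bp, Rgs2 and Rgs8 were closer together than in wild type, and Rgs20 (59.2 ± 7.499 TPM) lay above Rgs14 on average.

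**Figure D1:**
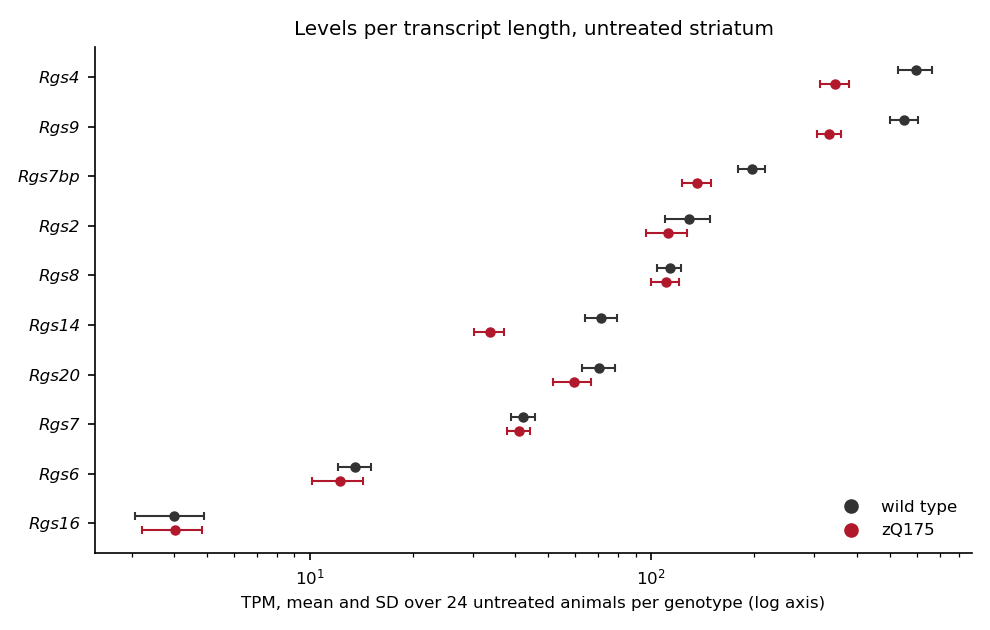
Level of each of the 10 genes in TPM (log axis) in untreated wild-type and untreated zQ175 mice. Points are means and bars are SD over the 24 animals of each genotype in the 3 strategies. Rgs4 and Rgs9 stand together at the top in wild type, at means of 597 and 552 TPM, and Rgs16 lies lowest, at 3.98 TPM.

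The main comparison set zQ175 against wild type in untreated mice, with sex in the model and all 6 groups of a strategy in 1 edgeR fit. Rgs14, Rgs4, Rgs9 and Rgs7bp fell in all 3 strategies, with log2 fold changes between -1.22 and -0.56. Rgs20 fell in 2 strategies, Rgs7 by small amounts in 2, and Rgs6 in 1. Without treatment no strategy called Rgs2, Rgs8 or Rgs16. In all, 6, 5 and 6 of the 10 were called lower at an adjusted p under 0.05 under 2[4]6, 6[4]10 and 2+6[8]10, and none was called higher. Over all genes tested, 17.2%, 17% and 18.3% were called lower and 15.3%, 19.2% and 17.1% were called higher. The median log2 fold change of the 10 was -0.33, -0.23 and -0.34, against 0.0035, 0.011 and 0.0031 over all genes tested. Without the libraries that stand apart the members called lower were 8, 5 and 6, with Rgs6 and Rgs8 added under 2[4]6. Fitted with only the groups compared they were 9, 5 and 6, with Rgs2, Rgs6 and Rgs8 added under 2[4]6.

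**Figure D2:**
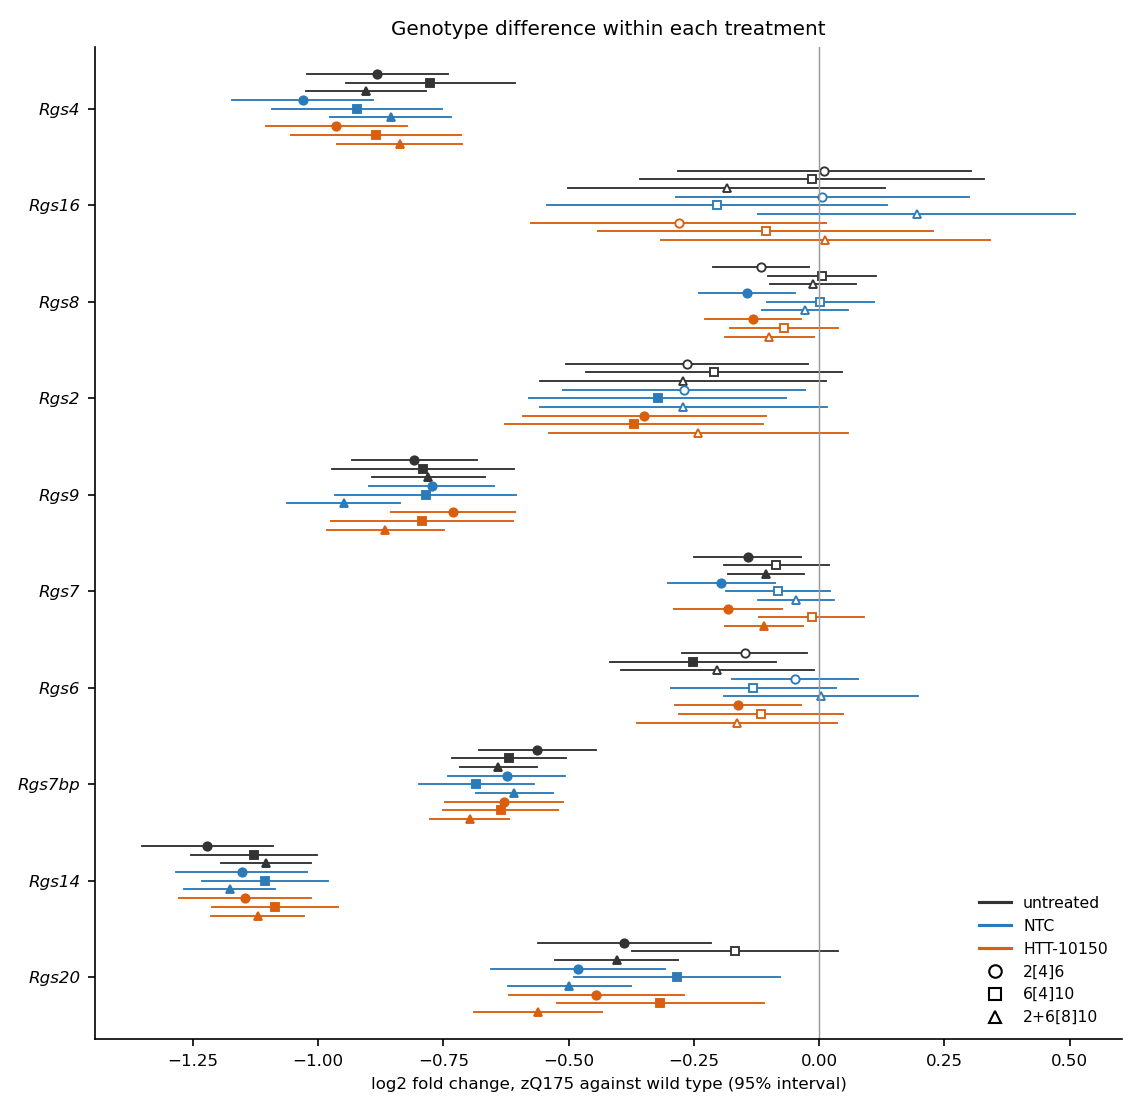
Log2 fold change of zQ175 against wild type for each of the 10 genes, from edgeR fits with 95% confidence intervals, by strategy (shape) and treatment (colour), with filled markers for an adjusted p under 0.05. Rgs14, Rgs4, Rgs9 and Rgs7bp are filled and below 0 in all 9 comparisons, and Rgs16 is open in all 9.

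For Rgs14, Rgs4, Rgs9 and Rgs7bp the animals did not overlap: every untreated zQ175 mouse was below every untreated wild-type mouse in each strategy. That held for 5.8%, 4.63% and 5.82% of all genes tested. The same 4 genes were also without overlap between genotypes in the NTC groups, where 5.45%, 4.88% and 7.04% of all genes were, and in the HTT-10150 groups, where 4.02%, 5.1% and 6.82% were. The medium spiny neuron marker list moved the same way, with 14 of its 15 genes called lower in each strategy and no overlap of the summed level between genotypes (5740 to 10877 CPM in zQ175 and 14029 to 20171 CPM in wild type over all treatments). In bulk tissue, fewer cells of a type and less RNA per cell cannot be told apart, and the part of that list in the falls of these 4 genes was not tested.

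Rgs9, the striatal member of the R7 group, fell by a similar share of its level in each strategy. In 2[4]6 it ran from 522 to 686 CPM (median 589) in untreated wild-type mice and from 313 to 370.5 CPM (median 342) in untreated zQ175 mice. In 6[4]10 the ranges were from 535 to 713 CPM (median 646) and from 324 to 397 CPM (median 379), and in 2+6[8]10 from 544 to 624 CPM (median 571) and from 297 to 362 CPM (median 341). All zQ175 animals were low and all wild-type animals high in each of these groups. The log2 fold change was -0.81 (SE 0.062), -0.79 (SE 0.09) and -0.78 (SE 0.056), which is 42.9, 42.2 and 41.8% below wild type, with adjusted p of 3.90e-15, 1.67e-09 and 7.21e-16.

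Rgs7bp, the palmitoylated anchor that carries R7 proteins with Gnb5 to the plasma membrane, had a smaller log2 fold change than Rgs9 in each strategy. Its untreated wild-type mice ran from 478 to 608 CPM (median 537) in 2[4]6, from 399 to 524 CPM (median 509) in 6[4]10 and from 507 to 589.8 CPM (median 553) in 2+6[8]10. The zQ175 mice ran from 323 to 419 CPM (median 368), from 304 to 348 CPM (median 316) and from 326 to 384 CPM (median 353) in the same order. Again no zQ175 animal reached the lowest wild-type animal. On the log2 scale the change was -0.56 (SE 0.058), -0.62 (SE 0.057) and -0.64 (SE 0.038), with adjusted p of 3.75e-11, 1.51e-12 and 1.47e-19.

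The other R7 regulators, Rgs7 and Rgs6, which act on Gi/o alpha subunits in many brain regions, changed little. Rgs7 ran from 24.8 to 33.4 CPM (median 29.1) in wild type and from 24.6 to 30.3 CPM (median 26.2) in zQ175 under 2[4]6, so the groups overlapped. Its log2 fold change was -0.14, -0.086 and -0.11 with adjusted p of 0.0325, 0.205 and 0.0239. Calls this small depend on how the libraries are scaled: without scaling for composition the median of all genes moved by 0.093, 0.068 and 0.08 on the log2 scale, and Rgs7 stood at -0.05, -0.028 and -0.029. Leaving out replicate number 1, 2, 3 or 4 ended the Rgs7 call of 2+6[8]10 (adjusted p 0.0503 to 0.105), and leaving out replicate 1, 3 or 4 ended that of 2[4]6, where the adjusted p became 0.144, 0.163 and 0.238. Without the filter on low counts neither passed, at adjusted p of 0.0638 and 0.0799.

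Rgs6 ran from 24.4 to 34.2 CPM (median 26.4) in wild type and from 19.9 to 28.9 CPM (median 22.5) in zQ175 under 6[4]10. Most zQ175 animals were low, but the groups overlapped. The log2 fold change was -0.25 (SE 0.082) with an adjusted p of 0.0138, a call that was lost without replicate 2 (adjusted p 0.0918) and without replicate 3 (adjusted p 0.0893). In the other strategies it was -0.15 (adjusted p 0.0602; 0.0484 without the libraries that stand apart, 0.0481 without replicate 2 and 0.0315 with only the groups compared) and -0.20 (adjusted p 0.0934).

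Rgs4, an R4 regulator of Gi/o and Gq that is abundant in forebrain neurons, fell in each strategy. Untreated wild-type mice ran from 762 to 1066 CPM (median 833) in 2[4]6, from 596 to 857 CPM (median 765) in 6[4]10 and from 707 to 894 CPM (median 773) in 2+6[8]10. The zQ175 mice ran from 431 to 562 CPM (median 468), from 397 to 499 CPM (median 454) and from 369 to 499 CPM (median 396). The wild-type animals were high and the zQ175 animals low in every strategy, with a gap between them. The log2 fold change was -0.88 (SE 0.07), -0.78 (SE 0.084) and -0.90 (SE 0.06), or 45.7, 41.6 and 46.6% below wild type, with adjusted p of 1.87e-14, 3.84e-10 and 7.02e-17. Rgs5, the R4 gene next to Rgs4 at a distance of 45.7 kb with no coding gene between, was named for that position and fell in each strategy, with log2 fold changes of -0.22, -0.23 and -0.18. Of the 13 endothelial and mural cell markers, 11, 9 and 8 were called lower, with none at 0 and a summed level of 290.0 to 388 CPM in zQ175 and 333 to 469 CPM in wild type. Their part in the Rgs5 values was not tested.

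**Figure D3:**
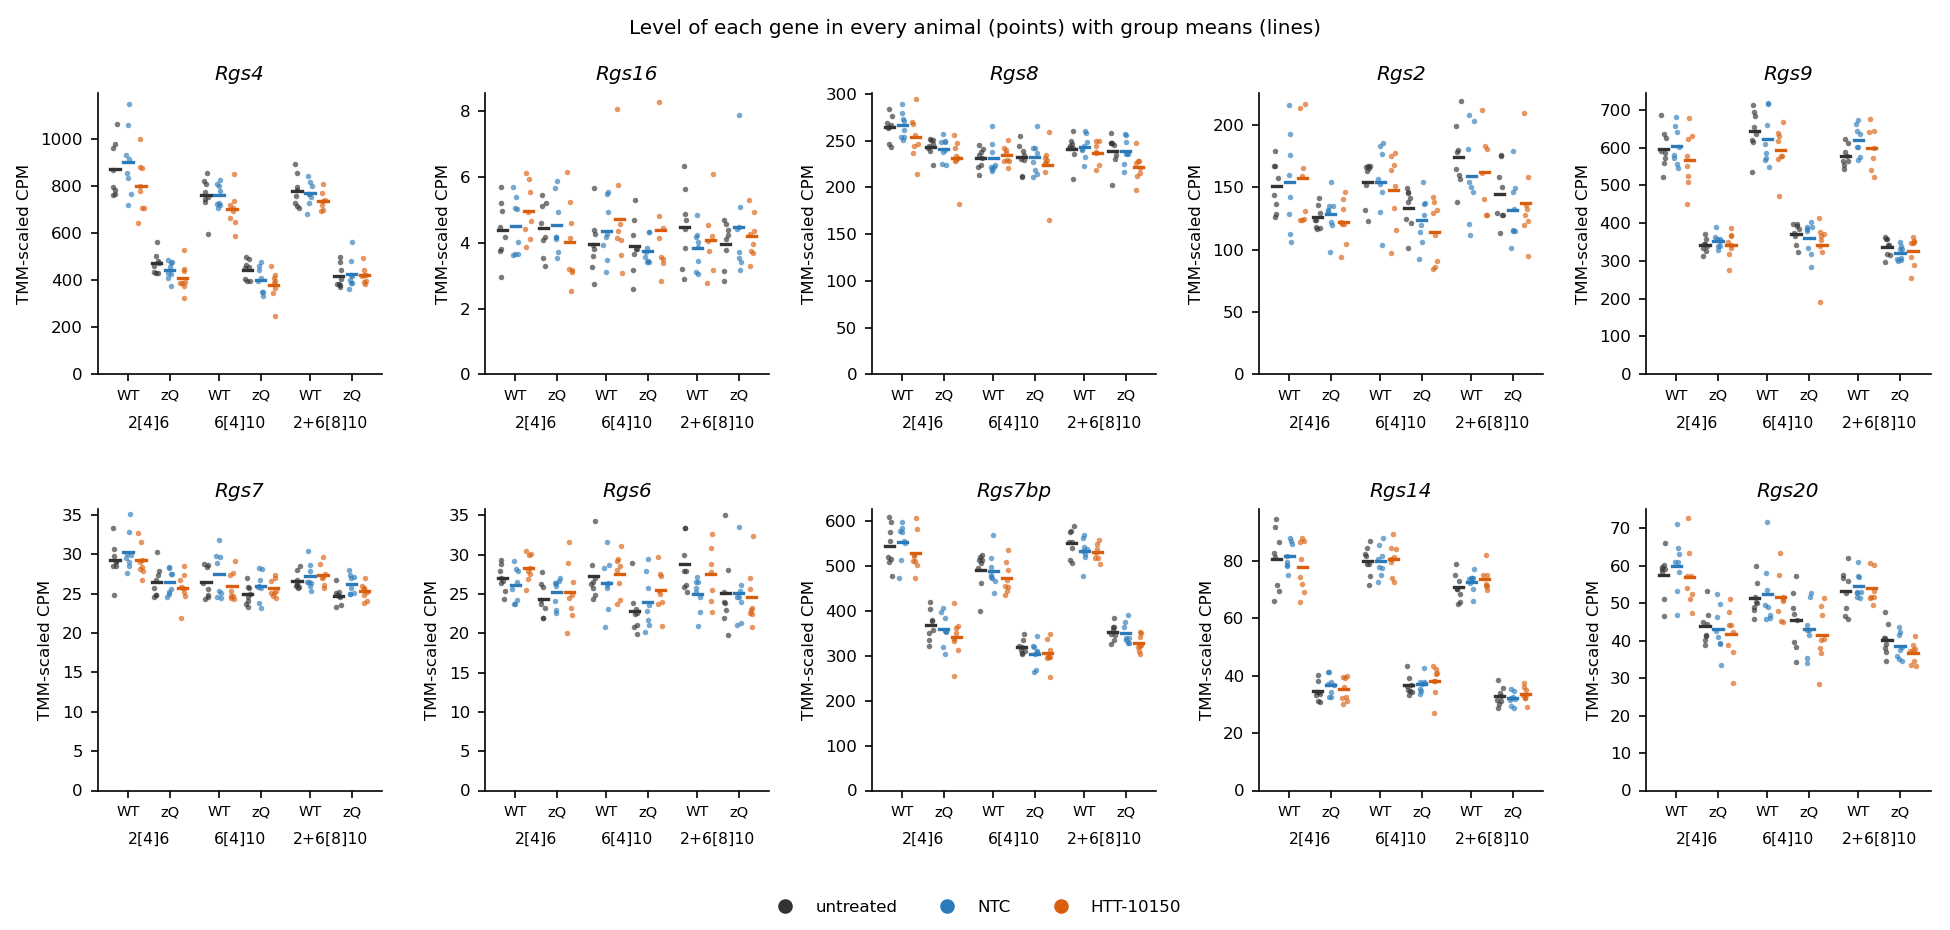
Level of the members in CPM scaled by TMM for every animal, by genotype, treatment and strategy, with 1 point per animal and lines at the group means. For Rgs4, Rgs7bp, Rgs9 and Rgs14 the zQ175 points lie below the wild-type points within each strategy and treatment, and within a genotype the 3 treatments overlap.

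Rgs2, a regulator with preference for Gq that is induced by neuronal activity, did not pass the test without treatment in the fit of all 6 groups. In 2[4]6 it ran from 126 to 179 CPM (median 150.9) in wild type and from 117 to 141.8 CPM (median 123.8) in zQ175. In 6[4]10 the ranges were from 123 to 167 CPM (median 164) and from 101.6 to 149 CPM (median 139.7), and in 2+6[8]10 from 138 to 219 CPM (median 171) and from 113.2 to 175.784 CPM (median 139.7). The groups overlapped in each strategy. The log2 fold change was -0.26, -0.21 and -0.27 with adjusted p of 0.0872, 0.203 and 0.136. The 95% intervals were -0.50 to -0.023, -0.47 to 0.046 and -0.56 to 0.014. Fitted with only the groups compared, the 2[4]6 value passed the test, at -0.26 with an adjusted p of 0.00766. Summed immediate early genes (18 genes, Rgs2 not among them, none at 0) ran from 722 to 2347 CPM (median 1313) in wild type and from 496 to 1588 CPM (median 865) in zQ175 over all treatments, and 13, 5 and 4 of the 18 were called lower. Their part in the Rgs2 values was not tested.

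Rgs8, an R4 regulator of Gi/o that is read from the gene beside Rgs16, did not pass the test either. Under 2[4]6 it ran from 243 to 284 CPM (median 265) in wild type and from 224 to 251 CPM (median 245) in zQ175, and the groups overlapped. Log2 fold changes were -0.12, 0.0057 and -0.011, with 95% intervals of -0.21 to -0.021, -0.10 to 0.11 and -0.097 to 0.074. In each strategy a fall as large as that of Rgs7bp lies outside the interval. Without the libraries that stand apart, its change in 2[4]6 passed the test, at -0.15 with an adjusted p of 0.00058, and with only the groups compared it passed at -0.12 with 0.013. Rgs16, an R4 regulator of Gi/o and Gq that was scarce here, ran from 2.97 to 5.71 CPM (median 4.33) in wild type and from 3.28 to 5.46 CPM (median 4.39) in zQ175 under 2[4]6. Its log2 fold change was 0.011, -0.014 and -0.18, and the intervals were wide, -0.28 to 0.30, -0.36 to 0.33 and -0.50 to 0.13.

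Rgs14, a scaffold that joins an RGS domain to Ras-binding domains and a GoLoco motif that holds inactive Gi alpha, had the largest fall of the 10 in every strategy. In wild type it ran from 66.1 to 94.6 CPM (median 82.0) in 2[4]6, from 71.7 to 86.8 CPM (median 80.3) in 6[4]10 and from 65.05 to 78.7 CPM (median 70.1) in 2+6[8]10. In zQ175 it ran from 30.8 to 40.2 CPM (median 34.1), from 33.2 to 43.5 CPM (median 35.6) and from 28.8 to 38.6 CPM (median 32.3). The highest zQ175 animal was below the lowest wild-type animal in each strategy. The level in zQ175 was 2.33, 2.19 and 2.15-fold lower, a log2 fold change of -1.22 (SE 0.065), -1.13 (SE 0.063) and -1.10 (SE 0.045), with adjusted p of 1.04e-20, 6.24e-20 and 5.04e-26.

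Rgs20, which encodes the Gz-selective regulator RGSZ1, fell in 2 of the 3 strategies. It ran from 46.5 to 66.1 CPM (median 59.1) in wild type and from 38.95 to 53.2 CPM (median 43.0) in zQ175 under 2[4]6, from 45.8 to 60.0 CPM (median 50.2) and from 34.4 to 57.3 CPM (median 46.3) under 6[4]10, and from 45.8 to 62.0 CPM (median 54.3) and from 34.6 to 47.7 CPM (median 39.8) under 2+6[8]10. The groups overlapped in all 3 strategies. The changes were -0.39 (SE 0.086), -0.17 (SE 0.10) and -0.40 (SE 0.061), with adjusted p of 3.49e-04, 0.207 and 5.24e-07. The difference between the 6[4]10 and the 2[4]6 value was 0.22 with an adjusted p of 0.372, so the strategies were not shown to differ. Of the 12 astrocyte markers, 8, 8 and 9 were called lower and 1 was called higher in each strategy. None was at 0, and the summed level was 3126 to 4156 CPM in zQ175 and 4072 to 5099 CPM in wild type over all treatments. Their part in the Rgs20 values was not tested.

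The same genotype comparison could be made in other animals, those given NTC and those given HTT-10150. Under NTC, 7, 6 and 5 of the 10 were called lower, where 18.5%, 15.9% and 21.4% of all genes were. Under HTT-10150, 9, 6 and 6 were called lower, where 17.4%, 16.9% and 18.7% of all genes were. No member was called higher. Rgs14 differed by -1.15, -1.11 and -1.18 on the log2 scale under NTC and by -1.15, -1.09 and -1.12 under HTT-10150. For Rgs4 the differences were -1.03, -0.92 and -0.86 under NTC and -0.96, -0.88 and -0.84 under HTT-10150. Rgs9 stood at -0.77, -0.79 and -0.95 and -0.73, -0.79 and -0.87, and Rgs7bp at -0.62, -0.68 and -0.61 and -0.63, -0.64 and -0.70. All 24 of these values passed the test.

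Rgs20 passed it in each siRNA group too, at -0.48, -0.28 and -0.50 under NTC and -0.45, -0.32 and -0.56 under HTT-10150, and its genotypes did not overlap in the NTC and HTT-10150 groups of 2+6[8]10. Its calls of 6[4]10 were lost without some replicate numbers: under NTC without replicate 1 (adjusted p 0.194) and replicate 4 (0.265), and under HTT-10150 without replicate 2 (0.0518) and replicate 4 (0.0608). The NTC call was also lost without the libraries that stand apart, at an adjusted p of 0.084. Rgs2 was called lower in 3 of the 6 siRNA comparisons, at -0.32 under NTC in 6[4]10 and at -0.35 and -0.37 under HTT-10150 in 2[4]6 and 6[4]10, with adjusted p of 0.0465, 0.0215 and 0.0206. Without the libraries that stand apart the last of these was lost, at an adjusted p of 0.101. Each of the 3 was also lost without some replicate numbers, with adjusted p up to 0.507, 0.164 and 0.224 in the same order, and with only the groups compared (0.0725, 0.0631 and 0.0809). The first was also lost without the filter on low counts (0.0746). Rgs7 was called in 2[4]6 under both siRNAs and in 2+6[8]10 under HTT-10150, and Rgs8 in 2[4]6 under both siRNAs at -0.14 and -0.13. The Rgs7 call under NTC was lost without replicate 3 (adjusted p 0.12), that under HTT-10150 in 2[4]6 without replicate 4 (0.13), and that in 2+6[8]10 without replicates 1, 2 or 4 (0.132, 0.0666 and 0.0922), without the filter on low counts (0.0584) and with only the groups compared (0.089). The Rgs8 calls were lost without replicate 3 (0.235 under NTC and 0.0635 under HTT-10150) and, under HTT-10150, without replicate 4 (0.562), without the filter on low counts (0.0581) and with only the groups compared (0.16).

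Among the siRNA groups Rgs6 was called under HTT-10150 in 2[4]6 alone, at -0.16 with an adjusted p of 0.041, and 5 of 11 alternatives lost the call: without replicate 1 (0.147), without replicate 2 (0.218), with DESeq2 (0.0549), without the filter on low counts (0.0709) and with only the groups compared (0.115). Under NTC in 6[4]10 it passed only without replicate 1, at -0.23 with an adjusted p of 0.0307. Rgs16 passed the test in none of the 9 genotype comparisons. Without replicate 4 it passed under HTT-10150 in 2[4]6, at -0.49 with an adjusted p of 0.0287, against -0.28 (0.141) with all animals.

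HTT-10150 was then set against NTC within each genotype. None of the 10 was called in zQ175 or in wild type under any strategy. The background was low: 0%, 0% and 3.16% of genes were called in zQ175 and 0.00636%, 0% and 0.0129% in wild type for 2[4]6, 6[4]10 and 2+6[8]10. At an unadjusted p under 0.05 there were 821, 561 and 2635 genes in zQ175 and 932, 517 and 812 in wild type. DESeq2 called 0, 0 and 772 genes in zQ175 and 2, 0 and 7 in wild type, none of them a member.

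The levels show the overlap directly. Under 2+6[8]10, the strategy in which Htt was called lower in both genotypes, Rgs14 in zQ175 ran from 28.8 to 35.4 CPM (median 32.1) with NTC and from 29.1 to 37.6 CPM (median 33.1) with HTT-10150. Rgs4 ran from 362 to 561 CPM (median 408) and from 385 to 494 CPM (median 420.4), and Rgs9 from 299 to 349.8 CPM (median 320.3) and from 255 to 364 CPM (median 349). HTT-10150 and NTC animals overlapped for each. The log2 fold changes and their 95% intervals were 0.06 (-0.033 to 0.15) for Rgs14, -0.013 (-0.13 to 0.11) for Rgs4, 0.025 (-0.088 to 0.14) for Rgs9 and -0.092 (-0.17 to -0.015) for Rgs7bp. The genotype differences with NTC in the same strategy were -1.18, -0.86, -0.95 and -0.61, and a rise of that size lies above the upper bound for each gene.

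The 3 member values with an unadjusted p under 0.05 stayed short of the adjusted threshold. In zQ175 under 2+6[8]10, Rgs8 differed by -0.11 (unadjusted p 0.0157, adjusted p 0.161) and Rgs7bp by -0.092 (unadjusted p 0.0195, adjusted p 0.182), both below the NTC level. In wild type under 2[4]6, Rgs4 differed by -0.17 (unadjusted p 0.0166, adjusted p 0.823). Over all members and strategies the values in zQ175 lay between -0.16 and 0.21, and both of these ends belong to Rgs16, the scarcest gene. No member was called for an unequal HTT-10150 effect in the genotypes, where 0%, 0% and 0.529% of all genes were.

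**Figure D4:**
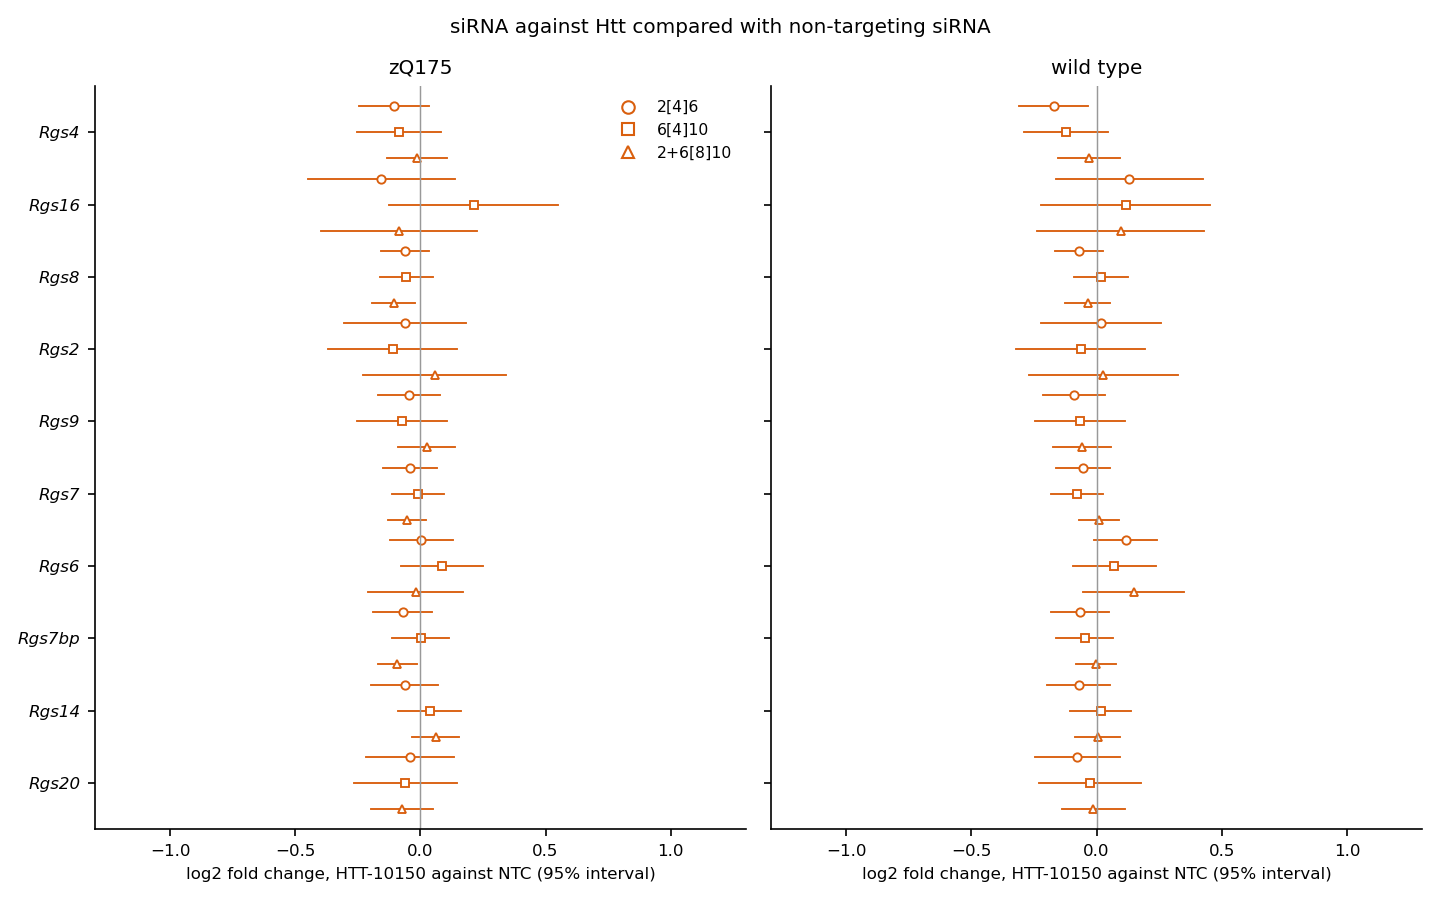
Log2 fold change of HTT-10150 against NTC for each of the 10 genes in zQ175 and in wild type, with 95% confidence intervals, by strategy (shape). All markers are open, since no member passed an adjusted p under 0.05, and all but 3 intervals span 0.

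NTC against untreated mice showed how far a non-targeting siRNA moved these genes. No member was called in either genotype, where 0% of all genes were called in each strategy in zQ175 and 0%, 0% and 0.181% in wild type. At an unadjusted p under 0.05 the genes tested numbered 785, 1167 and 473 in zQ175 and 316, 394 and 1771 in wild type. Among the members, 2 of 60 values had an unadjusted p under 0.05: Rgs6 in wild type under 2+6[8]10, at -0.21 with an adjusted p of 0.399, and Rgs7 in zQ175 under 2+6[8]10, at 0.086 with an adjusted p of 1. These comparisons share their NTC animals with those of HTT-10150 against NTC.

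The strategies were compared in untreated mice with 1 fit over all 143 libraries. Age and cohort cannot be told apart here, since each strategy is its own set of mice. In wild type, Rgs8 was lower in 6[4]10 than in 2[4]6, at -0.20 (adjusted p 0.00517), and so was Rgs7, at -0.15 (adjusted p 0.0376), among 12.1% of genes called. Rgs14 was lower in 2+6[8]10 than in 2[4]6, at -0.22 (adjusted p 0.00962), among 16.9% of genes. Between 2+6[8]10 and 6[4]10, which share their age at collection, no member was called in wild type, among 10.2% of genes. Without the libraries that stand apart Rgs9 was lower in 2+6[8]10 than in 6[4]10, at -0.22 (adjusted p 0.0144), and Rgs8 was lower in 2+6[8]10 than in 2[4]6, at -0.18 (adjusted p 0.0069). With no sex term Rgs7bp was lower in 6[4]10 than in 2[4]6, at -0.17 (adjusted p 0.0316). In 2+6[8]10 against 6[4]10 that setting called Rgs7bp, at 0.17 (adjusted p 0.04), and Rgs14, at -0.18 (adjusted p 0.0454). In 2+6[8]10 against 2[4]6 it added Rgs7, at -0.15 (adjusted p 0.0234), and Rgs8, at -0.15 (adjusted p 0.0328).

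In untreated zQ175 mice no member was called between strategies, where 7.95%, 3.04% and 20.2% of genes were called for 6[4]10 against 2[4]6, 2+6[8]10 against 2[4]6 and 2+6[8]10 against 6[4]10. At an unadjusted p under 0.05 the counts were 3694, 3054 and 5362 genes and 1, 0 and 2 members. Without the libraries that stand apart Rgs9 was lower in 2+6[8]10 than in 6[4]10, at -0.24 (adjusted p 0.00494), and Rgs6 was higher, at 0.27 (adjusted p 0.0357). With no sex term Rgs7bp was lower in 6[4]10 than in 2[4]6, at -0.23 (adjusted p 0.0036). It was then also higher in 2+6[8]10 than in 6[4]10, at 0.16 (adjusted p 0.0364). The genotype difference itself was not shown to vary with strategy for any member, with 0.835%, 0.0675% and 0.0123% of genes called in the same order. Its change lay between 0.012 and 0.035 for Rgs9 and between 0.034 and 0.12 for Rgs14. The smallest adjusted p of the 30 values was 0.372, for Rgs20.

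Females and males differed in some members. Under 2[4]6, Rgs4 was higher in females by 0.22 (adjusted p 1.52e-04), Rgs7bp by 0.14 (adjusted p 0.00334) and Rgs20 by 0.15 (adjusted p 0.0339), while Rgs14 was lower, at -0.12 (adjusted p 0.0182). That strategy called 16.6% of all genes between the sexes. Without replicate 2, and likewise without replicate 3, Rgs4 alone stayed called there (adjusted p up to 0.124 for Rgs7bp, 0.25 for Rgs20 and 0.213 for Rgs14). Under 2+6[8]10 only Rgs4 was called, at 0.13 (adjusted p 0.0328), among 2.1% of genes, and the call was lost without the libraries that stand apart (adjusted p 0.0745), without the filter on low counts (0.0642) and without replicate number 1, 2, 3 or 4 (0.0555 to 0.244). Under 6[4]10 no member was called, among 2.21% of genes, with Rgs4 at 0.062 (adjusted p 0.554). The difference in these sex values between strategies was not tested. In each strategy the sex value of Rgs4 was smaller in size than its genotype value.

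Within a group, mice also varied, and that variation was shared between some members and the marker lists. Log2 levels were centred within each group and sex, which removes genotype, treatment, strategy and sex, and 155 relations were computed over the 143 mice. Of these, 61 had a Benjamini-Hochberg adjusted permutation p under 0.05. Rgs9 followed the medium spiny neuron markers most closely, with Pearson's r 0.904 and Spearman's rho 0.858 (permutation p 1e-05, the smallest that the resampling can give, adjusted p 8.20e-05). Without the 2 animals farthest from the median r was 0.881, and within 2[4]6, 6[4]10 and 2+6[8]10 it was 0.901, 0.951 and 0.805. It was 0.805 without the libraries that stand apart. It was 0.863 in wild type and 0.928 in zQ175.

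Rgs2 instead moved with the immediate early genes. Pearson's r was 0.828 and rho 0.833 (permutation p 1e-05, adjusted p 8.20e-05), 0.82 without the 2 farthest animals and 0.854 without the libraries that stand apart. Within the strategies r was 0.842, 0.754 and 0.887, and by genotype 0.819 in wild type and 0.841 in zQ175. With the medium spiny neuron markers Rgs2 had an r of 0.23 (rho 0.17, adjusted permutation p 0.075), which did not pass. All values of an animal come from 1 library, so they share its dissection and depth. Under 2+6[8]10, centred Rgs2 and immediate early values were mostly below 0 in mice with replicate numbers 1 and 2. They were mostly above 0 in mice with higher numbers. Under 2[4]6, every wild-type mouse with replicate number 1 had centred Rgs9 and medium spiny neuron marker values below 0. The zQ175 mice of that number lay on both sides of 0 for Rgs9. In the same strategy the zQ175 females with replicate number 4 had Rgs4 and Rgs7bp values below 0. Centring and permuting within group and sex leave such shifts in. Their part in these and the other r values and permutation p-values was not tested.

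**Figure D5:**
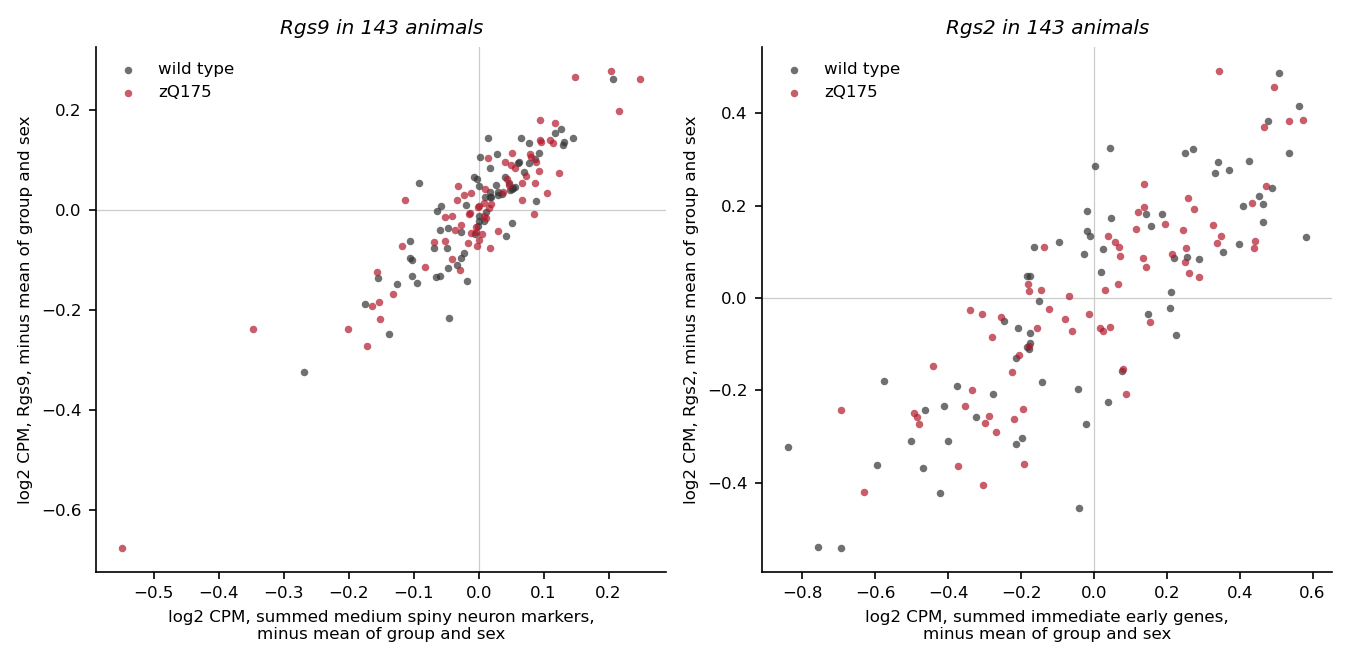
Log2 level of Rgs9 against the summed medium spiny neuron markers and of Rgs2 against the summed immediate early genes, each centred within group and sex, 1 point per mouse (143 mice, wild type in black, zQ175 in red). Both clouds rise along a line in both genotypes, with Pearson's r of 0.904 and 0.828.

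The other members followed the medium spiny neuron markers less closely than Rgs9 or ran against them. With that list 9 of the 10 members had an adjusted permutation p under 0.05, all but Rgs2, so Rgs7 and Rgs20 passed too. These relations were computed for the members alone. The share of all genes that follow the list is not known, so the count is not read as particular to the members. With the medium spiny neuron markers r was 0.776 for Rgs8, 0.736 for Rgs4, 0.6 for Rgs7bp and 0.499 for Rgs14 (rho 0.68, 0.691, 0.531 and 0.386, adjusted permutation p 8.20e-05 for each). Without the 2 farthest animals these were 0.719, 0.677, 0.523 and 0.427, and without the libraries that stand apart 0.597, 0.629, 0.504 and 0.345. Within the strategies r ran from 0.707 to 0.885 for Rgs8, 0.521 to 0.85 for Rgs4, 0.567 to 0.649 for Rgs7bp and 0.451 to 0.531 for Rgs14. Rgs8 followed these markers between animals of a group, and its genotype values in untreated mice were the -0.12, 0.0057 and -0.011 given above. In 2[4]6 the genotype value of Rgs8 was called under NTC, at -0.14, and under HTT-10150, at -0.13. Rgs6 and Rgs16 ran against that list, with r of -0.422 and -0.358 (rho -0.486 and -0.397, adjusted permutation p 8.20e-05 for both), from -0.71 to -0.331 and from -0.499 to -0.236 within the strategies, and of -0.531 and -0.384 without the libraries that stand apart. Rgs6 rose with the interneuron markers (r 0.452, rho 0.466, adjusted permutation p 8.20e-05, from 0.241 to 0.569 within the strategies, 0.509 without the libraries that stand apart). It rose likewise with the thalamic, septal and pallidal neuron markers (r 0.448, rho 0.433, adjusted permutation p 2.10e-04, from 0.22 to 0.726 within the strategies, 0.539 without the libraries that stand apart) and with the cortical neuron markers (r 0.324, rho 0.294, adjusted permutation p 0.0018, from 0.266 to 0.486 within the strategies, 0.159 without the libraries that stand apart). Sparc led the thalamic, septal and pallidal sum, at a mean of 212 CPM where the median sum was 298 CPM. That sum is thus largely Sparc, and the list without Sparc was not tested. Rgs9 ran against the cortical markers (r -0.411, rho -0.338, adjusted permutation p 7.70e-04, from -0.488 to -0.329 within the strategies, -0.196 without the libraries that stand apart). Rgs20 rose with the astrocyte markers (r 0.46, rho 0.368, adjusted permutation p 8.20e-05, from 0.327 to 0.504 within the strategies, 0.223 without the libraries that stand apart). Among the 45 pairs of members, Rgs4 and Rgs7bp were the most alike, with r 0.692 and rho 0.619 (adjusted permutation p 8.20e-05, 0.646 without the 2 farthest animals, 0.598 without the libraries that stand apart, and from 0.617 to 0.783 within the strategies). Rgs6 and Rgs16 also rose together, with r 0.486 and rho 0.465 (adjusted permutation p 8.20e-05, 0.458 without the 2 farthest, 0.423 without the libraries that stand apart, from 0.48 to 0.499 within the strategies). In all, 19 pairs had a positive and 8 a negative r at an adjusted p under 0.05, and pairs of other genes were not counted for comparison.

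Over the 18 group means of log2 CPM, the genes most like each member among 16295 were ranked by Pearson's r, as a description of points that share genotype. For Rgs9 they were Gabrd (0.997), Inf2 and Itga5. For Rgs4 they were Chn1 (0.996), Elmod1 and Kcnab1, for Rgs14 Rps6ka4 (0.998), Lzts3 and Smurf1, and for Rgs7bp Atp2b1 (0.997), Strn and Cyld. Rgs2 was nearest to Dusp6 (0.967), Tiparp and Egr1. Rgs20 was nearest to Pde8b (0.983), Cacnb2 and Fam78a, and Rgs7 to Dcaf7 (0.956), Fut8 and Ino80c. For Rgs8 the list was Ubl4a (0.930), Rnf6 and Dnajc5, for Rgs6 Sema6d (0.884), Kcna6 and 2810459M11Rik, and for Rgs16 Slc25a15 (0.791), Gabbr2 and Gdap2.

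The rest of the pathway was read from lists of its parts in untreated zQ175 against wild type. The counts of each list stand beside the shares over all genes tested in that comparison. These were 17.2%, 17% and 18.3% called lower and 15.3%, 19.2% and 17.1% called higher. Among other genes with an RGS domain, 5 were called lower in each strategy and 2, 1 and 1 higher, of 13, 12 and 12 tested, with a median log2 fold change of 0.0025, -0.085 and -0.076. Rgs11, the remaining R7 gene, fell by 0.69, 1.08 and 0.96 on the log2 scale, Rgs12 changed by -0.43, -0.40 and -0.25 and Rgs10 by -0.36, -0.21 and -0.34. Rgs19, an RZ gene like Rgs20, rose by 0.68, 0.78 and 0.75. Of the 3 partners of the R7 group that could be tested, 2 were called lower in each strategy: the obligate beta subunit Gnb5 by -0.51, -0.19 and -0.34 and the orphan receptor Gpr158, which binds Rgs7, by -0.46, -0.42 and -0.44. The median log2 fold change of these partners was -0.46, -0.19 and -0.34, against 0.0035, 0.011 and 0.0031 for all genes tested.

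The subunits that the regulators act on were mixed. Of 13 alpha subunits, 2, 4 and 2 were called lower and 2, 4 and 3 higher, and their median was -0.023, 0.013 and 0.05. Gnao1, a main substrate of the R7 group, changed by -0.31, -0.24 and -0.26 and Gnal, the striatal stimulatory alpha subunit, by -0.24, -0.19 and -0.19. Gnai1 rose by 0.18, 0.18 and 0.16 and Gnaq by 0.098, 0.11 and 0.067. Of 14 beta and gamma subunits, 4, 5 and 4 were called higher and 2 lower in each strategy, with a median of 0.045, 0.083 and 0.10. The gamma subunits Gng4 and Gng3 rose by 0.70, 0.98 and 0.78 and by 0.50, 0.77 and 0.69, and Gng12 by 0.11, 0.16 and 0.13. The striatal gamma subunit Gng7 changed by -0.40, -0.42 and -0.38 and the beta subunit Gnb2 by -0.34, -0.16 and -0.24.

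Of 20 striatal receptors tested, 15, 14 and 15 were called lower and 1 higher in each strategy, and the median log2 fold change was -0.47, -0.57 and -0.55. The cannabinoid receptor Cnr1 changed by -1.07, -1.22 and -1.24, the adenosine receptor Adora2a by -1.003, -1.001 and -1.05 and the muscarinic receptor Chrm4 by -0.92, -0.83 and -0.83, whereas the serotonin receptor Htr2c rose by 0.73, 0.77 and 0.93. Of 19 effectors, 12, 11 and 11 were called lower and 1 higher, with the phosphodiesterase Pde10a at -1.06, -1.05 and -1.04, the adenylyl cyclase Adcy5 at -0.90, -0.85 and -0.82 and Ppp1r1b at -0.91, -0.69 and -0.81. The median of the effectors was -0.33, -0.22 and -0.23. Gng7, Pde10a, Adcy5 and Ppp1r1b are also in the medium spiny neuron list. Of 15 other modulators, 6, 6 and 5 were called lower and 3, 3 and 4 higher, with a median of -0.12, -0.13 and -0.047. The small G protein Rasd2 changed by -0.70, -0.52 and -0.64, Rap1gap, which speeds hydrolysis on Rap1, by -0.55, -0.51 and -0.53, and the alpha subunit chaperone Ric8b by -0.26, -0.33 and -0.27. Gpsm2, which holds Gi alpha through GoLoco motifs as Rgs14 does, rose by 0.15, 0.18 and 0.22, and the receptor kinase Grk6 by 0.099, 0.13 and 0.16.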

How the data were processed

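Striatal polyadenylated RNA from 143 mice was sequenced, per the labels' protocols, after extraction with an RNeasy kit. The authors deposited expected counts per gene, made with RSEM on GRCm38 per the submitters' processing notes. For the RSEM version, aligner and annotation nothing is stated in these sources. Another table that the authors deposited is named for FPKM, but all its columns have the same sum, that of TPM, so its values were read as TPM. Of 41135 entries, 7 name no mouse gene (5.91e-06% of counts) and were left out. Expected counts were rounded to whole numbers, which 78.2% of nonzero values already were.

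Groups came from the labels. The main test was edgeR 4.0.16 (R 4.3.3), a quasi-likelihood fit of the 6 groups of each strategy that included sex, filterByExpr, TMM scaling, robust dispersions and Benjamini-Hochberg adjustment over all genes tested, with calls at adjusted p under 0.05. Strategies were compared in 1 fit over 143 libraries with sex within strategy. CPM are TMM-scaled. Relations within groups used log2 CPM with a prior count of 2 and 100000 permutations within group and sex, two-sided. The alternatives were DESeq2 1.42.0, RLE size factors, no low-count filter, no sex term, only the groups compared, a replicate block, replicate numbers 1 to 4 left out in turn, and, added after the data were seen, the 22 libraries that stand apart left out. The scripts were tested on simulated counts. The members, the marker and pathway lists and the rules for naming genes (all members; up to 3 genes per direction and pathway list, called in all 3 strategies; the 3 genes most like each member) were chosen with earlier results of these data known. Promoters came from RefSeq and positions from GENCODE M21.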

Additional observations from a re-analysis of the deposited data

Results flagged for a closer look

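Each set of 7 or 8 animals was searched for a mouse far from the others, by the gap to its nearest neighbour over the range of the set (Dixon's 95% critical value). Of 180 sets, 11 held such a mouse, and chance alone gives about 1 in 20.

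Rgs6 was far above its group in 3 mice. These were an untreated wild-type female of 6[4]10 at 34.2 CPM (next 28.6), an untreated zQ175 male of 6[4]10 at 28.9 CPM (next 23.9) and an NTC zQ175 male of 2+6[8]10 at 33.5 CPM (next 26.2). The last mouse was also high in Rgs16, at 7.89 CPM (next 5.10). Rgs16 was high in an HTT-10150 zQ175 female of 6[4]10, at 8.27 CPM (next 4.82).

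Rgs8 was far below its group in 3 zQ175 mice: an untreated male of 2[4]6 at 224 CPM (next 238), an HTT-10150 female of 2[4]6 at 182 CPM (next 228) and an HTT-10150 male of 6[4]10 at 165 CPM (next 216). The last of these was also low in Rgs9, at 191 CPM (next 323). That male had 556 CPM of summed cortical neuron markers, the HTT-10150 female of 2[4]6 had 4140 CPM of summed choroid plexus markers, and the untreated zQ175 male of 6[4]10 with high Rgs6 had 613 CPM of cortical markers. These 3 are among the 22 libraries that stand apart, and the part of the markers in these values was not tested.

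Rgs14 was high in an NTC zQ175 male of 6[4]10, at 42.7 CPM (next 37.8), which was still below every wild-type mouse of its strategy and treatment. Rgs20 was high in an NTC wild-type female of 6[4]10, at 71.8 CPM (next 58.0).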

How the results depend on the processing

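No value that was called in the main or the alternative run changed sign between them. Some uncalled values near 0 did, such as Rgs16 under NTC in 2[4]6, at 0.0064 with alternatives from -0.16 to 0.12. Among values called in neither run, 78 moved by at least 1 SE of the main fit. Rgs4, Rgs7bp, Rgs9 and Rgs14 were called lower in zQ175 under all 11 alternatives of each of the 9 genotype comparisons, and the counts of members called there kept within 1.5 times. The siRNA comparisons called no member under any of them. The count of members that differ between the sexes was 1 to 5 under 2[4]6 when replicate numbers 1 to 4 were left out in turn, against 4. Under 2+6[8]10, against 1, it was 2 with DESeq2, 0 without the low-count filter, 0 without the libraries that stand apart and 0 to 1 with replicate numbers 1 to 4 left out (replicate 5, held by 1 mouse, was always kept). Between 2+6[8]10 and 2[4]6 in untreated wild type it was 3 with no sex term and 2 without the libraries that stand apart, against 1. Between 2+6[8]10 and 6[4]10, against 0, it was 2 and 1 in wild type and 1 and 2 in zQ175 under the same changes. Between 6[4]10 and 2[4]6 in zQ175 it was 1 with no sex term, against 0. The cause was not tested.

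Same-numbered mice of different groups had a mean correlation of 0.054, 0.026 and 0.013 under 2[4]6, 6[4]10 and 2+6[8]10. For mice with different numbers it was -0.018, -0.0084 and -0.0038. Of the same-numbered pairs, 32.5%, 22.5% and 15.5% were over 0.1. Pairing by replicate number was thus not established, but mice of the same number were slightly more alike in each strategy. Rgs2 and the immediate early genes under 2+6[8]10, and Rgs9, Rgs4 and Rgs7bp in some mice under 2[4]6, also shifted with replicate number, as given above. A replicate block gave 8, 5 and 7 members called in untreated mice, against 6, 5 and 6, with Rgs6 and Rgs8 added under 2[4]6 and Rgs2 under 2+6[8]10 (adjusted p 0.0461). Only the groups compared gave 9 under 2[4]6. Depth limits Rgs16 most, at about 4 CPM.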
